A study of Mus musculus with 6 samples.

Results

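A set of 34 genes of the blood vessel lining and its signals was followed in the embryonic mouse hindlimb, in the presence and absence of the transcription factor gene Lmx1b. The set held 34 of the 18193 genes that the arrays could name. Each gene was read from the probe set (the group of array probes designed to 1 transcript) that carried its symbol alone and had the highest mean over the 6 arrays. The symbols were listed as a group of vascular genes, and the rule set no cut on measured values for the choice of genes. Earlier results of these data were known when the choice was made, and may have influenced it. All 34 were found.

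The study asked which genes LMX1B, a LIM homeodomain protein that gives limb mesenchyme its dorsal fate, controls as the hindlimb forms. There were 3 wild-type pools and 3 Lmx1b -/- pools (homozygous null, called null here), all of strain 129Sv at E11.5 (embryonic day). A pool combined both hindlimb buds of 3 embryos, so 6 buds, cut to the proximal 500 µm or so, and each pool went on 1 array. The labels name no conditional allele. Pool numbers only name the samples.

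Endothelial cells form the inner lining of every vessel. They are held together by cadherin and claudin junctions, grow toward vascular endothelial growth factor (VEGF) through its receptor tyrosine kinases, and are stabilised by angiopoietin acting on the Tie receptors, with the ligand Angpt1 supplied largely by the surrounding mesenchyme. Transcription factors of the ETS and SoxF families keep the endothelial programme running. In the limb bud a capillary network is laid down early and is remodelled around a central artery as the skeleton condenses.

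As a check of the labels, Lmx1b itself had wild-type values of 8.02, 7.58 and 8.17 and null values of 4.62, 4.23 and 4.57, always given in the order of the pool numbers, a difference of -3.45 (limma adjusted p = 0.00026). A second, dim Lmx1b probe set was level, with means of 3.93 and 3.92. Values throughout are log2 RMA values (robust multi-array average, a background-corrected and between-array normalized summary of a probe set), so a difference of 1 is a 2-fold change, and a level is not compared between genes because probe sets differ in affinity. The hindlimb genes Pitx1 and Tbx4 were bright in all pools, at means of 10.27 and 10.49 in wild type. The endothelial markers Pecam1, Cdh5, Kdr, Tie1 and Emcn were all above the midpoint of the arrays, a median probe-set mean of 4.98, as were 30 of the 34 genes. Angpt1, Angpt2, Gja5 and Lyve1 lay below it, and are called dim here. Pools also differed in sex make-up. The female-specific transcript Xist read 4.68 and 4.72 in wild-type pools 1 and 3 but 9.88 in wild-type pool 2 and from 9.16 to 10.79 in the null pools. The Y-linked gene Eif2s3y read 2.65 in null pool 3 against 5.86 to 7.12 elsewhere. Xist was thus high in every null pool but, among wild-type pools, only in pool 2, so it is largely confounded with genotype. Fits with Xist as a covariate cannot fully tell the 2 apart. Wild-type pool 3 stood apart in hypoxia and glycolysis genes, as given with the vessel scores.

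Promoter sequences from RefSeq (build GRCm38.p6; 250 bases before to 50 after a gene's start) were matched by symbol for 17 of the 34 genes, in 22 windows. They are shown for Tek, which had the largest difference between the groups, for Kdr, the main VEGF receptor gene, and for Emcn and Robo4 as examples that hold an ETS motif. Tek lies at chr4:94739039-94739338 (plus strand), Kdr at chr5:75978406-75978705 (minus strand), Emcn at chr3:137340828-137341127 (plus strand) and Robo4 at chr9:37401722-37402021 (plus strand). Each is written 5′ to 3′ along the gene, with capitals marking a searched motif on either strand.
Tek: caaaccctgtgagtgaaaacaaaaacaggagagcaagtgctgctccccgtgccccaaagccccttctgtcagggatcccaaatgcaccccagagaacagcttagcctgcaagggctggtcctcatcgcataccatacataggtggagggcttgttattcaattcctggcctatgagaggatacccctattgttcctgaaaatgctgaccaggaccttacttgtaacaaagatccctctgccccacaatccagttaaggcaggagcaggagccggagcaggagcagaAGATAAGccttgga
Kdr: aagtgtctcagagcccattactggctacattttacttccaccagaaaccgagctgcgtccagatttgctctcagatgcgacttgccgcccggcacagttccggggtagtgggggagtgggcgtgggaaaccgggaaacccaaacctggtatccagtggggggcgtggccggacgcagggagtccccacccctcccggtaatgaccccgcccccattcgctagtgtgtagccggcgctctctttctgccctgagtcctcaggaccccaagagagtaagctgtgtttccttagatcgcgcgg
Emcn: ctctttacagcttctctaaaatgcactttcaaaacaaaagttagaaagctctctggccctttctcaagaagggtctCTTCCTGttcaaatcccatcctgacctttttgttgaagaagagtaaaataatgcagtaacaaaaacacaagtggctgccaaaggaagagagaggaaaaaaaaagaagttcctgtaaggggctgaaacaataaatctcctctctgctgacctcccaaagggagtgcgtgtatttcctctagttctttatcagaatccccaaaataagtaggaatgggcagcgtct
Robo4: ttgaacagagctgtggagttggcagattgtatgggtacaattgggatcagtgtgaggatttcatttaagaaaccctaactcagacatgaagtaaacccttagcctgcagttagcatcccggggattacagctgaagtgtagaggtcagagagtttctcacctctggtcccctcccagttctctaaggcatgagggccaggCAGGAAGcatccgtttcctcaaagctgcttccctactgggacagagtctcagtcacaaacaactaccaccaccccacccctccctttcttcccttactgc
The letters searched on both strands were CAGGAAG or CCGGAAG for ETS factors, CCATTGT for SOX factors and AGATAAG for GATA factors. No match overlapped a match of another motif. An ETS motif stood in 7 of the 22 windows (31.8%), those of Apln, Cd34, Egfl7, Emcn, Erg and Robo4, against 20.9% of all 32851 windows of the same 300 bases. A GATA motif stood in 2 windows (9.09%, Erg and Tek) against 3.04% of all, and the SOX letters in 0 against 3.66%. The Tek window above holds the GATA letters and no ETS letters of this form, and the Kdr window holds none of the 3 motifs. These matches describe letters only, and binding was not measured.

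None of the 34 genes passed the threshold, a limma p adjusted over all 18193 genes of under 0.05. Of all genes 0.104% passed, with 0.0879% lower and 0.0165% higher in null pools. Of the 34 genes, 28 had a null mean below the wild-type mean, as did 43% of all genes. The median difference (null minus wild type) was -0.10, against 0.02 over all genes, and single genes ran from -0.65 for Tek to 0.23 for Apln. Before adjustment, 6 genes had a limma p under 0.05 against 9.8% of all genes. The 5 lower ones, against 3.88% of all genes, were Tek, Angpt1, Erg, Kdr and Pecam1, and Apln was higher. In 7 genes all 3 null values lay below all 3 wild-type values, against 5.44% of all genes, and in 1 gene, Apln, they lay above, against 9.16%. Those 7 were Tek, Angpt1, Kdr, Flt1, Pecam1, Plvap and Cd34. With none of the genes past the threshold, a decrease of endothelial RNA is not established. Even for a real decrease, fewer endothelial cells and less RNA per endothelial cell cannot be told apart in bulk tissue.

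**Figure D1:**
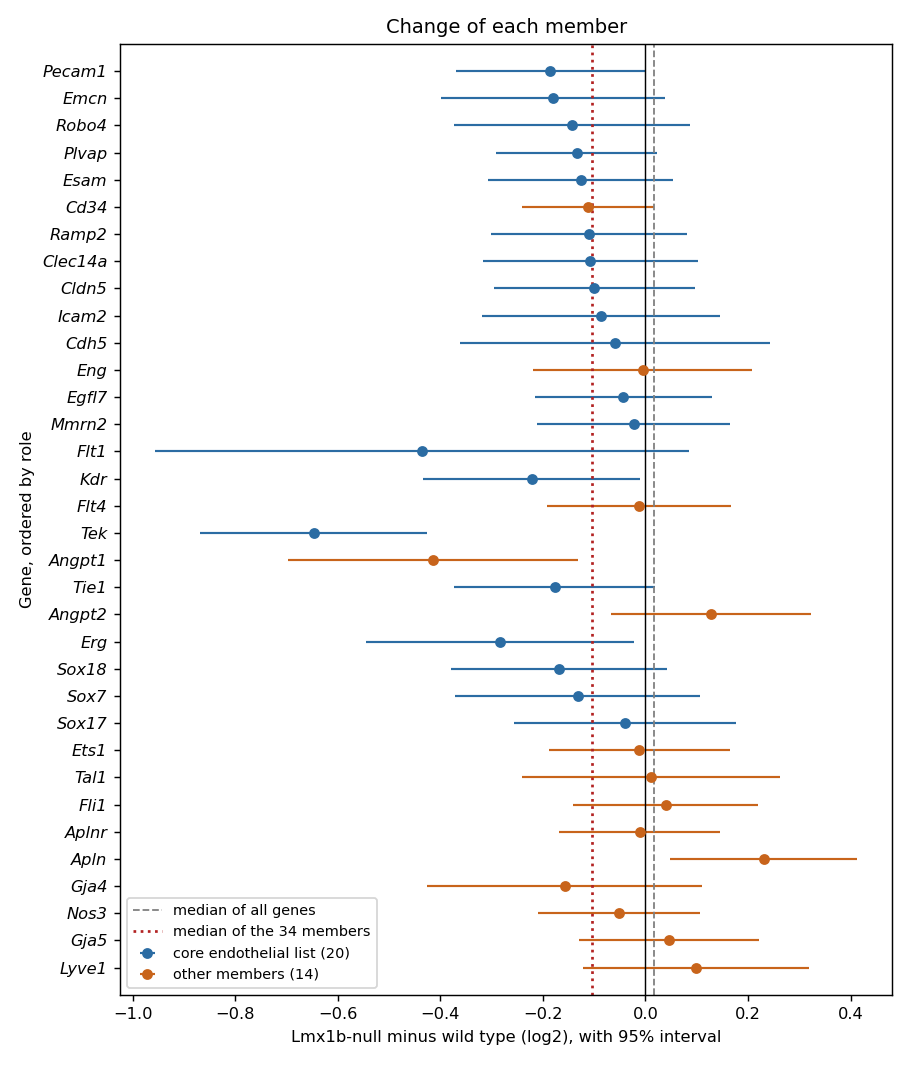
Difference between null and wild-type means on the log2 scale for each of the 34 genes (points) with 95% intervals from the limma fit (bars), in the order of their roles; vertical lines mark 0, the median of all genes (0.02) and the median of the 34 (-0.10). Tek lies farthest from 0 at -0.65, and 28 intervals hold 0.

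The angiopoietin and Tie genes held the largest difference. Tek encodes the receptor tyrosine kinase that binds angiopoietins. Its wild-type values were 6.83, 6.57 and 6.47, and its null values 5.95, 5.97 and 6.02. The groups did not overlap, and the null pools lay within 0.0748 of each other, while the wild-type pools spread over 0.365. The means were 6.62 ± 0.19 and 5.98 ± 0.04 (SD, n = 3), a 1.57-fold lower level in null pools with a difference of -0.65 (SE 0.10, 95% interval -0.87 to -0.43; limma adjusted p = 0.0849). Tek was 32nd of the 18193 genes by p-value and did not pass. It passed with an intensity trend in the variance model (adjusted p = 0.0477), with array weights (0.0458) and without wild-type pool 1 (0.0496). With Xist as a covariate the limma adjusted p was 0.586, and with the pool number as a block it was 0.183. It was up to 0.351 when 1 pool was left out. The difference itself stayed between -0.73 and -0.54 under every one of the 17 alternatives. Tek had 1 probe set, so alternatives in the choice of probe set could not change this difference, nor could those in the variance model.

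Angpt1, the ligand that activates this receptor, was dim and read 5.03, 4.80 and 4.63 in wild-type pools and 4.22, 4.41 and 4.58 in null pools. The lowest wild-type pool and the highest null pool were 4.63 and 4.58, so the groups were apart by little. The difference was -0.41 (SE 0.12; limma adjusted p = 0.363), or 1.33-fold, and the other, dimmer Angpt1 probe set was at -0.06. Angpt2, which competes with Angpt1 in many settings, was dim in both groups, at 4.10 ± 0.14 and 4.23 ± 0.07 (SD, n = 3). Its difference was 0.13, with the same 0.13 in its other probe set, and did not pass (limma adjusted p = 0.656). Without wild-type pool 3 it was 0.0492. Tie1, the partner receptor of Tek, read 6.73, 6.51 and 6.79 in wild-type pools and 6.54, 6.43 and 6.52 in null pools. Wild-type pool 2 lay within the null range there, and the difference was -0.18 (SE 0.08; limma adjusted p = 0.543), or -0.0317 with the Xist level in the fit. Thus 3 of these 4 genes had lower means in null pools and Angpt2 a higher one, with 0 past the threshold.

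Among the VEGF receptors, Kdr, the main signalling receptor, read 7.13, 7.06 and 7.40 in wild-type pools and 6.98, 6.96 and 6.99 in null pools. All null values lay below all wild-type values, and wild-type pool 3 was the highest. The difference was -0.22 (SE 0.09; limma adjusted p = 0.496). It was -0.12 without wild-type pool 3 and -0.10 with Xist as a covariate. Flt1, the receptor that mostly traps VEGF, read 5.62, 5.69 and 6.56 in wild-type pools and 5.54, 5.43 and 5.59 in null pools. Its difference of -0.44 (SE 0.23; limma adjusted p = 0.569) came with a wild-type range of 0.94, and it was -0.13 without wild-type pool 3 and -0.21 with Xist as a covariate. Wild-type pool 3 had the highest value in all 4 Flt1 probe sets, whose differences ran from -0.44 to 0.04. Flt4, the receptor for VEGF-C, was level, at 6.95 ± 0.11 and 6.94 ± 0.08 (SD, n = 3), with a difference of -0.01 and a 95% interval from -0.19 to 0.17.

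**Figure D2:**
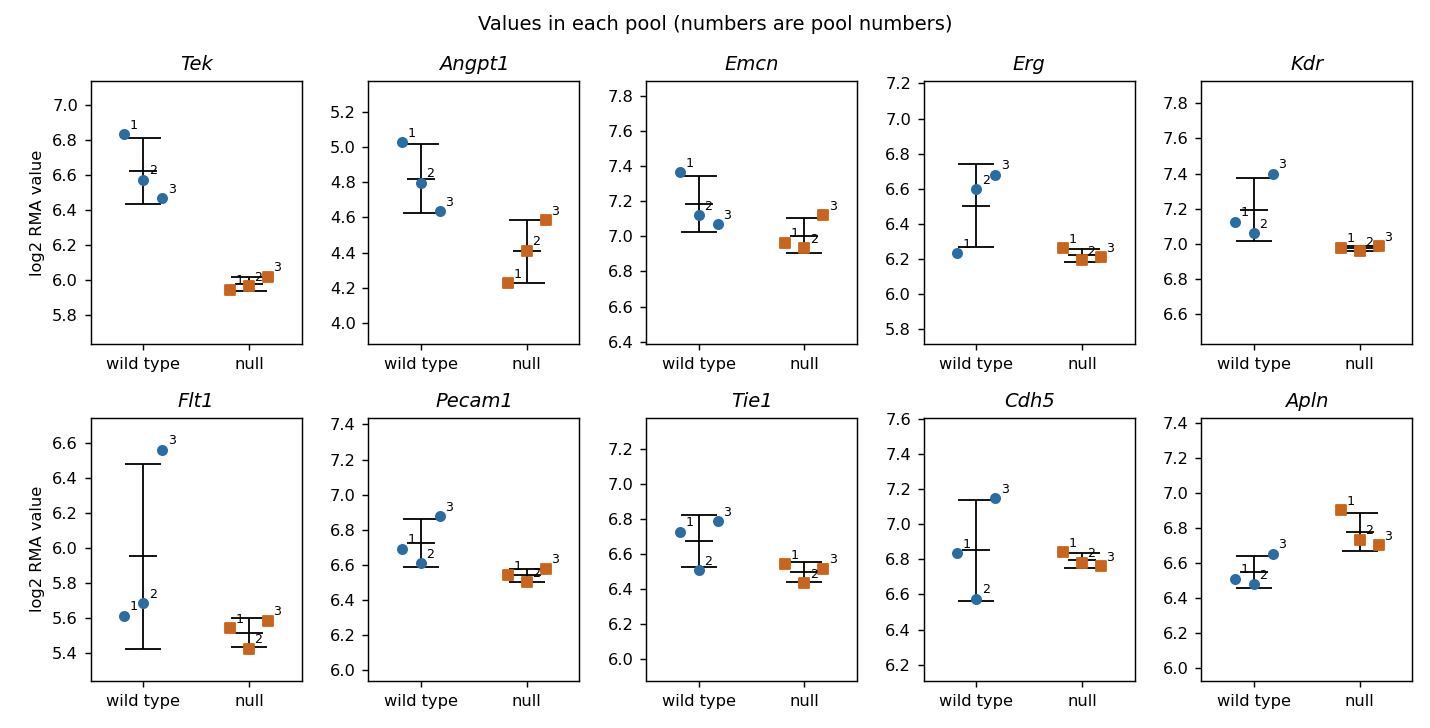
Log2 RMA values of 10 of the genes in each pool (points, numbered by pool) with the group mean and SD (bars, n = 3); every panel spans the same number of log2 units on the y axis. Tek separates the groups by the widest gap, whereas in Flt1, Kdr, Pecam1 and Cdh5 wild-type pool 3 sits above the other pools.

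All 12 junction and surface genes were lower in null pools, by 0.0049 to 0.19 on the log2 scale, and none passed. Pecam1, the adhesion molecule found where endothelial cells touch, read 6.69, 6.61 and 6.88 in wild-type pools and 6.54, 6.50 and 6.58 in null pools. The groups did not overlap, although the lowest wild-type value, 6.61, and the highest null value, 6.58, were close, and the difference was -0.19 (SE 0.08; limma adjusted p = 0.507). It was -0.11 without wild-type pool 3 and -0.0891 with Xist as a covariate. Cdh5, the vascular cadherin of adherens junctions, read 6.83, 6.57 and 7.15 in wild-type pools and 6.84, 6.78 and 6.76 in null pools. Here the wild-type pools enclosed the null pools on both sides, and the difference of -0.06 (SE 0.13) had a 95% interval from -0.36 to 0.24. It turned to 0.09 without wild-type pool 3, to 0.03 with array weights and to 0.20 with Xist as a covariate. Emcn, a mucin of capillary and venous endothelium, read 7.37, 7.12 and 7.07 in wild-type pools and 6.96, 6.93 and 7.12 in null pools, a difference of -0.18 (SE 0.09; limma adjusted p = 0.571). Its null pool 3 reached the level of wild-type pool 2.

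Cd34, a sialomucin of vessels and of blood progenitors, had closely spaced pools, 7.84, 7.84 and 7.87 in wild type and 7.76, 7.71 and 7.74 in null. The difference was small but the groups did not overlap (-0.11, SE 0.06; limma adjusted p = 0.553). Plvap, which builds the diaphragms of endothelial pores, also had groups that did not overlap, at 7.97 ± 0.08 and 7.83 ± 0.06 (SD, n = 3). The lectin Clec14a (-0.11), the tight junction genes Esam (-0.13) and Cldn5 (-0.10), the leukocyte ligand Icam2 (-0.09), the endothelial Robo4 (-0.14) and the adrenomedullin receptor component Ramp2 (-0.11) had overlapping groups. Single pools moved these values: without wild-type pool 3 Clec14a was at -0.0258, Ramp2 at -0.0332, Esam at -0.0677 and Icam2 at -0.0374. Cldn5 was at -0.0185 without wild-type pool 1 and at -0.17 without wild-type pool 3. Robo4 was at -0.26 without null pool 1 and at -0.0855 and -0.0866 without null pools 2 and 3. Eng, a co-receptor for TGF-beta family ligands, was at 7.24 ± 0.13 and 7.23 ± 0.13, a difference of -0.0049. A dimmer Clec14a probe set gave wild-type values of 4.15, 4.06 and 4.50 against 3.84, 3.95 and 3.94 in null pools, a larger difference of -0.33 that did not pass either (limma adjusted p = 0.448 over all probe sets).

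Both secreted proteins, Egfl7 and the Clec14a partner Mmrn2, were close to level. Egfl7 was at -0.04, and its 4 probe sets ran from -0.14 to 0.04. Mmrn2 was at -0.02, and its 4 probe sets ran from -0.04 to 0.25, with 2 of them higher in null pools.

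Transcription factor genes were 5 lower and 2 higher. Erg, an ETS factor that maintains endothelial identity, read 6.23, 6.60 and 6.68 in wild-type pools and 6.26, 6.19 and 6.21 in null pools. Wild-type pool 1 lay among the null pools, and without it the difference was -0.42 instead of -0.28 (limma adjusted p = 0.104 and 0.479). The dimmer Erg probe set was also lower, at -0.13. Of the SoxF genes, Sox18 was at -0.17, Sox7 at -0.13 and Sox17 at -0.04. Without wild-type pool 3, Sox18 was at -0.0968 and Sox7 at -0.0139. Sox7 read 6.49 in wild-type pool 3 and from 6.07 to 6.20 in the other 5 pools. The dimmer Sox17 probe set gave wild-type values of 5.27, 5.16 and 5.39 and null values of 5.18, 4.92 and 4.71, a difference of -0.34 (limma adjusted p = 0.455 over all probe sets), so the Sox17 probe sets disagreed in size. Ets1 (-0.01) and Fli1 (0.04), ETS genes that are not restricted to endothelium, and Tal1 (0.01), a factor of blood and endothelial precursors, were level within errors of 0.08 to 0.11. The other, dimmer Ets1 probe sets were all higher in null pools, by 0.05 to 0.20, and none passed over all probe sets.

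Apln, the peptide ligand made at the tips of growing vessels, was the 1 gene with all null pools above all wild-type pools. It read 6.51, 6.48 and 6.65 in wild-type pools and 6.90, 6.73 and 6.70 in null pools, and the gap between 6.65 and 6.70 was narrow. The difference was 0.23 (SE 0.08, 1.17-fold higher; limma adjusted p = 0.425). Its receptor gene Aplnr was level at 9.75 ± 0.09 and 9.74 ± 0.04 (SD, n = 3), with differences of -0.01 in both of its probe sets. Among arterial genes, Gja4, a connexin gene, read 6.03, 6.05 and 6.44 in wild-type pools and 6.03, 6.11 and 5.92 in null pools (-0.16), again with wild-type pool 3 highest. Without that pool the Gja4 difference was -0.0236, and -0.0197 with Xist as a covariate. Nos3, the endothelial nitric oxide synthase, was at -0.05. The arterial connexin gene Gja5, at 3.17 and 3.21, and Lyve1, a hyaluronan receptor of lymphatic endothelium and some macrophages, at 2.53 and 2.63, were among the lowest values on the arrays in both groups, and their differences were 0.05 and 0.10.

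Across probe sets, 16 of the 34 genes had more than 1, and in 10 of these all probe sets shared a sign. The 6 whose probe sets differed in sign were Egfl7, Eng, Ets1, Fli1, Flt1 and Mmrn2. In all, 42 of 58 probe sets were lower in null pools, and 0 passed over all probe sets, of which 0.0844% passed.

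Vessel content per pool was summarised as the mean over the 34 genes of each value minus the gene's own mean over the 6 pools. This score was 0.03, -0.0005 and 0.13 for wild type and -0.02, -0.07 and -0.07 for null. The wild-type scores lay above the null scores, and wild-type pool 3 stood above all. The order of wild-type pool 2 and null pool 1 turned under some alternatives: they were at -0.0130 and -0.0106 after another quantile normalization, and at -0.0049 and -0.0032 with the mean of all probe sets of a gene. It also turned when Tek alone was left out of the score, to -0.0088 for wild-type pool 2 and -0.0075 for null pool 1. The group means were 0.05 ± 0.07 and -0.05 ± 0.03 (SD, n = 3). A core list of 20 of the genes was set apart as endothelial markers, and their restriction to endothelium was not measured here. Its score was 0.05, 0.01 and 0.20 in wild-type pools and -0.04, -0.13 and -0.08 in null pools. All 20 core genes were lower in null pools, with a median of -0.13, whereas of the 14 others 8 were lower, with a median of -0.0080. The core list was drawn up with earlier results of these data known, so this contrast only describes the split. Without wild-type pool 3, 24 of the 34 genes were lower and their median was -0.0353 instead of -0.10. With the Xist level in the fit, 25 were lower with a median of -0.0576, and 18 of the core genes were lower. Without wild-type pool 3, 19 of the core genes were lower, with a median of -0.09. Over the fits that left out 1 pool, 17 to 20 core genes were lower, the 17 without null pool 2.

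**Figure D3:**
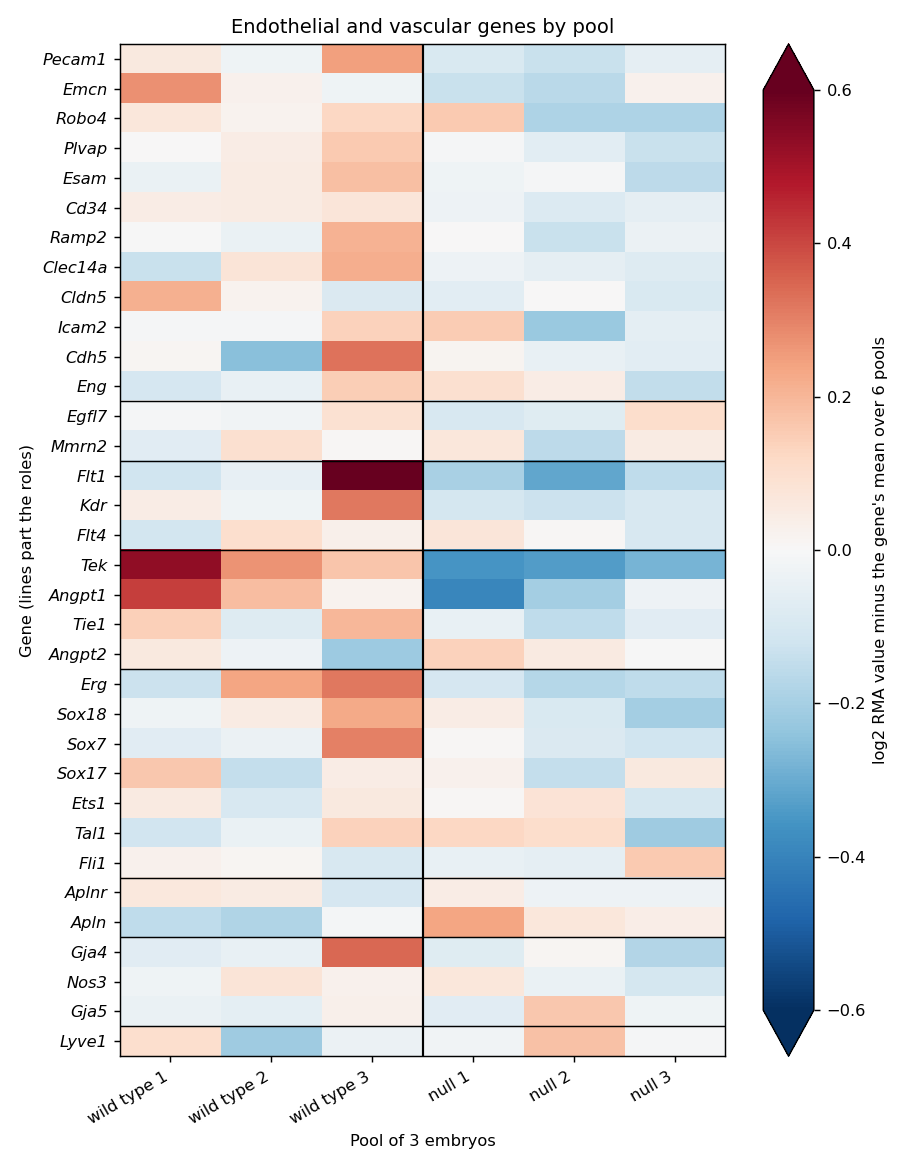
Each gene's log2 RMA value in each pool minus its mean over the 6 pools, by colour (red above, blue below), with genes grouped by role and the vertical line parting wild-type from null pools. Of the 20 core genes 12 are reddest in wild-type pool 3, but Tek, Angpt1, Emcn, Cldn5, Sox17 and Aplnr are reddest in wild-type pool 1.

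The genes did not all vary together. Of the 34, 16 (47.1%) had their highest value in wild-type pool 3, where 16.4% of all genes did, while 11 had their lowest in null pool 2 and 10 in null pool 3, where 13.1% and 17.4% of all genes did. Over the 561 pairs of genes, the median correlation across the 6 pools was 0.23, against 0.02 for pairs drawn from every 12th gene of the whole set. Among the 190 pairs of core genes it was 0.50, and 0.38 after the group means were taken off. These correlations are a description over 6 arrays that share their normalization, and genes are not independent replicates. Of the 20 core genes 15, among them Pecam1, Cdh5, Kdr, Flt1, Sox7, Plvap and Ramp2, ran highest among wild-type pools in pool 3. Tek, Angpt1, Emcn and Cldn5 ran in the opposite order, with wild-type pool 1 highest and wild-type pool 3 lowest among wild-type pools. Angpt2, Aplnr and Fli1 ran in that order too, with null minus wild-type differences of 0.13, -0.01 and 0.04. The spread between pools was also uneven: the median SD of the core genes was 0.15 in wild-type pools and 0.07 in null pools, and in 16 of 20 it was larger in wild type, against 53.1% of all genes.

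Genes of hypoxia and glycolysis were high in the same pool. All 14 measured were highest in wild-type pool 3, where their score was 0.75 against -0.23 to -0.06 in the other 5 pools, and 13 of 14 were lower in null pools with 0 past the threshold. The smallest p-values were those of Ldha (-0.39), Pdk1 (-0.50) and Bnip3 (-0.66). Vegfa, the VEGF ligand that low oxygen induces, read 7.40, 7.63 and 8.51 in wild-type pools and 7.60, 7.50 and 7.45 in null pools. The part of this pool's state in the endothelial values was not tested. The values without the pool are given with the scores.

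Other genes of the same pathways were read from lists. Of 34 further endothelial genes, 22 were lower in null pools, the median was -0.07 and 0 passed. Their scores were -0.03, -0.01 and 0.12 in wild-type pools and 0.02, -0.03 and -0.07 in null pools, and 19 of the 34 were highest in wild-type pool 3. All null pools lay below all wild-type pools in 1 of them and above in 4, against 5.44% and 9.16% of all genes. Procr, the protein C receptor gene, was at 0.27, Ccm2l at -0.28 and Ldb2 at -0.27 (limma adjusted p = 0.325, 0.425 and 0.438). Among 7 VEGF ligands and co-receptors, 5 were lower and 0 passed. Nrp2, a co-receptor for VEGF-C and for semaphorins, read 9.29, 9.46 and 9.73 in wild-type pools and 8.68, 8.87 and 8.77 in null pools, a difference of -0.72 (limma adjusted p = 0.0922). Vegfc, the lymphatic growth factor, read 6.51, 6.36 and 6.48 in wild-type pools and 6.24, 6.25 and 6.11 in null pools (-0.25; adjusted p = 0.338), and Vegfd was at 0.37 (0.486). In 2 of the 7, Nrp2 and Vegfc, all null pools lay below all wild-type pools, against 5.44% of all genes, and in 0 they lay above.

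Notch and artery genes split 5 lower and 9 higher, with a median of 0.01 and 0 past the threshold. Efnb2, an ephrin of arteries and of limb mesenchyme, was at -0.42 (limma adjusted p = 0.131), Cxcr4 at 0.27 and Jag2 at 0.21, while the arterial Notch ligand Dll4 (0.02) and Notch4 (-0.03) were level. Of 8 vein and lymphatic genes 5 were lower with 0 passing. Nrp2 and Aplnr are among them, Pdpn was at -0.18 and Nr2f2 at 0.12, and the lymphatic factor Prox1 was near the bottom of the range at 3.09 and 3.12. Of 16 mural cell genes, those of pericytes and smooth muscle around vessels, 7 were lower, the median was 0.01 and 0 passed. Their score was 0.11 in wild-type pool 3 and from -0.09 to 0.02 in the other pools. Rgs5, a pericyte gene, read 3.36, 3.42 and 3.54 in wild-type pools and 3.13, 2.79 and 2.95 in null pools (-0.48; limma adjusted p = 0.175), all near the bottom of the range, Abcc9 was at -0.33, and Pdgfrb, a bright mural and mesenchymal receptor, was at 0.13. In 5 measured genes that respond to blood flow, 3 were lower and 0 passed, with Ptgs2 at 0.13, Klf4 at -0.18 and Klf2 at -0.05.

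**Figure D4:**
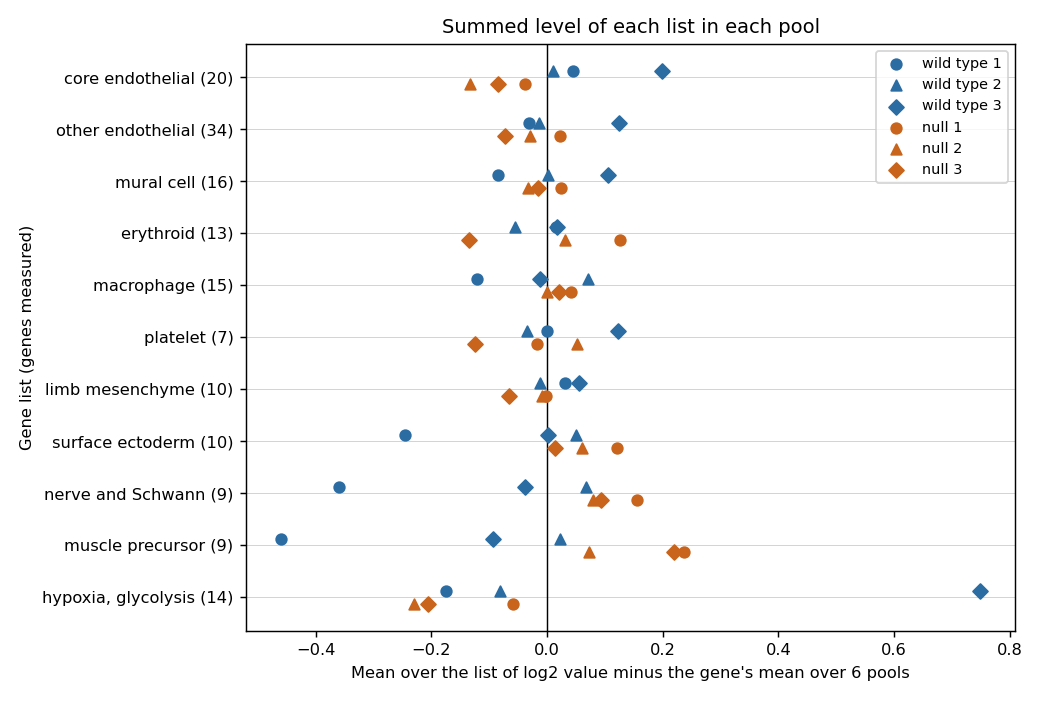
Mean over each gene list of the log2 value minus the gene's mean over 6 pools, one symbol per pool (blue for wild type, orange for null; circle, triangle and diamond for pools 1, 2 and 3), with the number of genes measured in brackets. Wild-type pool 3 stands out in the hypoxia list (0.75) and is the highest pool in the core endothelial list (0.20). It is also the highest in the other endothelial (0.12), mural cell (0.11), platelet (0.12) and limb mesenchyme (0.06) lists. Wild-type pool 1 is the lowest in muscle, nerve and ectoderm lists.

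Blood cells can share some of these genes, and their markers were read pool by pool. Wild-type pool 3 was the highest pool in 0 of 13 erythroid, 3 of 15 macrophage and 3 of 7 platelet markers, against 16.4% of all genes. Of 13 erythroid markers 5 were lower with a median of 0.05, and their scores ran from -0.06 to 0.02 in wild-type pools and from -0.14 to 0.13 in null pools. Of 15 macrophage markers 5 were lower with a median of 0.06, and their scores ran from -0.12 to 0.07 in wild-type and from 0.0009 to 0.04 in null pools. Platelet markers gave 3 of 7 lower and a median of 0.03. Their scores ran from -0.03 to 0.12 in wild-type and from -0.12 to 0.05 in null pools. Wild-type pool 3 was the highest of all pools there and null pool 3 the lowest. None of these markers passed. Some of them were clearly measurable, with Hbb-y at 13.35, Csf1r at 6.36 and Itga2b at 6.41 in wild-type pools. Those above the midpoint of the arrays were 9 of 13 erythroid, 8 of 15 macrophage and 5 of 7 platelet markers. Fcgr1, Cx3cr1 and F2rl2 lay below it. The smallest p-values were those of Tfrc (-0.31), Hbb-y (0.11) and Slc4a1 (0.13) in red cells, Fcgr1 (0.17), Cx3cr1 (0.13) and C1qb (0.14) in macrophages, and Ppbp (-0.33), F2rl2 (0.17) and Pf4 (-0.21) in platelets. The part of blood cells in the endothelial values was not tested.

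Markers of the other limb tissues shifted between pools as well. Limb mesenchyme markers were 6 of 10 lower, with a median of -0.07 and scores from -0.01 to 0.06 in wild-type and from -0.07 to -0.0017 in null pools, led by Tbx4 (-0.29), Pdgfra (-0.16) and Twist1 (0.14). Muscle precursor markers were 7 of 9 higher, with a median of 0.44, and their score was -0.46 in wild-type pool 1 against -0.09 to 0.24 elsewhere. Msc, Lbx1 and Myod1, regulators of muscle precursors, were at 0.78, 0.32 and 0.51. Surface ectoderm markers were 9 of 10 higher and nerve and Schwann cell markers 9 of 9 higher, with medians of 0.12 and 0.14, and again wild-type pool 1 was lowest, at -0.25 and -0.36. Epcam (0.22), Krt15 (0.50) and Krt18 (0.14) led the former, and Nefl (0.96), Tubb3 (0.13) and Isl1 (0.14) the latter. None of these passed. Wild-type pool 1 was also the pool in which Tek, Angpt1 and Emcn were highest. Without it Tek was at -0.54, Angpt1 at -0.31 and Emcn at -0.09.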

How the data were processed

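RNA of 6 pools (3 wild type, 3 Lmx1b -/-), each of separate embryos, was hybridised to 1 Affymetrix array each. The authors deposited log2 values, normalized by RMA per the submitters' processing notes, with no version named there; that the base of the log is 2 was read from the range of the values. Array medians lay between 4.964 and 4.992. RMA equalises arrays, so a shift shared by all genes would not be seen, and the number of arrays limits the precision.

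From 45101 probe sets, 64 controls were left out. Of the 45037 tested, 34945 carried 1 symbol in the platform annotation, 932 several and 9160 none. The brightest probe set per gene gave 18193 genes, fitted together in limma 3.58.1 (R 4.3.3; lmFit, eBayes; null minus wild type) with Benjamini-Hochberg adjustment at 0.05. An exact permutation test of 3 against 3 pools cannot go below p = 0.1. Lists were described by counts and medians. The fit was tested on simulated data with 200 of 18193 genes changed. It recovered 60.7% of log2 changes of 0.5, 81.8% of 0.65 and 2.7% of 0.25. In the real data 19 genes passed. The Benjamini-Hochberg cut is stricter when fewer genes change, so these rates may be too high for the real data. The median SE was also larger for the vascular gene set, at 0.0876, than over all genes, at 0.0783.

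The members and lists were chosen with earlier results of these data known. All members were named; values in every pool were given for the 6 members with the smallest p and for Pecam1, Cdh5, Kdr, Tek, Tie1 and Emcn, and from each other list up to 3 genes with the smallest p. The pool values of Flt1, Cd34, Gja4, Clec14a, Sox17, Nrp2, Vegfc, Rgs5 and Vegfa, and the genes Dll4, Notch4, Prox1, Csf1r and Itga2b, were chosen after values were seen. Pools with the same number did not deviate together (correlations of -0.26, -0.09 and -0.15), so the number was not used as a pairing. Alternatives covered the choice of probe set, scaling, the dim filter, the variance model, array weights, the pool number, Xist, and each pool left out.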

Additional observations from a re-analysis of the deposited data

How the results depend on the processing

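The median SE of a difference was 0.09 over the genes of the set. The simulation recovered 2.7% of changes of 0.25, a rate that may be too high for the real data, as given above. The number of genes past the threshold was 0, and 1 (Tek) with an intensity trend, with array weights and without wild-type pool 1; over the fits leaving out 1 pool it ran from 0 to 1. The number of genes lower in null pools ran from 24 to 29 and the median difference from -0.12 to -0.0353 over those fits, with 24 and -0.0353 both without wild-type pool 3. With the Xist level in the fit, 25 were lower and the median was -0.0576. Without a pool, differences that kept their sign ran from -0.11 to -0.0064 for Egfl7, -0.0982 to -0.0113 for Nos3 and 0.0156 to 0.17 for Lyve1. With the pool number as a replicate block, 0 genes passed, 28 were lower and the median was -0.10. With the core list alone the vessel score was 0.20 in wild-type pool 3 and -0.13 in null pool 2. Of the 34 genes, 23 kept their sign in every one of the 17 alternatives that gave them a value, and 11 changed it in at least 1. With the mean of all probe sets Eng was at 0.0194, Ets1 at 0.0921 and Mmrn2 at 0.0534. With another quantile normalization Flt4 was at 0.0177, Eng at 0.02 and Ets1 at 0.0052, and with median centring Tal1 was at -0.0056. With array weights Cdh5 was at 0.0297, Eng at 0.0140, Sox17 at 0.0165 and Ets1 at 0.0293. With the Xist level in the fit Cdh5 was at 0.20, Eng at 0.0696, Sox17 at 0.0848, Ets1 at 0.11 and Fli1 at -0.0248. Leaving out 1 pool gave ranges of -0.0639 to 0.0189 for Aplnr, -0.20 to 0.0892 for Cdh5, -0.0557 to 0.0688 for Eng, -0.0637 to 0.0388 for Ets1, -0.0299 to 0.0771 for Fli1, -0.0712 to 0.0339 for Flt4, -0.0239 to 0.0909 for Gja5, -0.18 to 0.0043 for Icam2, -0.0638 to 0.0489 for Mmrn2, -0.12 to 0.0305 for Sox17 and -0.0486 to 0.12 for Tal1. The cause of these changes of sign was not tested.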
